A study of Mus musculus with 8 samples.

Results

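The genes described here encode subunits of heterotrimeric G proteins, and 10 of the 26520 genes in the deposited table were selected by name. They are 5 alpha subunit genes (Gnas, Gnai2, Gnai3, Gnaq and Gna11), 2 beta subunit genes (Gnb1 and Gnb2) and 3 gamma subunit genes (Gng12, Gng5 and Gng10). The set was put together around Gng12 because its transcript lay strongly on the cytoplasmic side in MIN6 cells. The MIN6 fraction ratios of the members are therefore given as a description with no test. That reason names no liver value, so the liver ratios were tested, although earlier results of these data, liver included, were known when the genes were named.

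PolyA RNA was sequenced from nuclear and cytoplasmic fractions of liver, taken from mice, and of MIN6, a mouse insulinoma cell line used as a model of the pancreatic beta cell. The 4 groups were liver nuclear, liver cytoplasmic, MIN6 nuclear and MIN6 cytoplasmic RNA, each with 2 libraries, which makes 8. No group carried a mutation or a drug treatment in the labels, and the age of the mice was not given in the sources used here. Strain labels were C57BL/6, C57BL/7, C57BL/8 and C57BL/9 over the 4 liver samples. Liver nuclear RNA was the soluble material left once chromatin had been removed from nuclei, whereas MIN6 nuclear RNA came from whole nuclei pelleted through sucrose after lysis in NP-40. The nuclear fractions of the 2 tissues are thus different preparations. The labels do not say whether the libraries of a group came from separate animals or cultures, so p-values measure only the spread between these libraries, which may be technical. The title and the source label of each of the 4 MIN6 samples disagree on the fraction. Titles were used here. In both tissues the nuclear noncoding RNAs Neat1 and Malat1 were higher in each library titled nuclear than in either library titled cytoplasmic.

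A heterotrimeric G protein passes the signal of an activated receptor to enzymes and channels inside the cell. The alpha subunit binds GTP and sets the pathway: the Gs class activates adenylyl cyclase, the Gi class inhibits it, and the Gq class activates phospholipase C beta. The beta and gamma subunits form a stable dimer with effectors of its own, and the gamma subunit is anchored in the membrane by a lipid added near its end. In beta cells Gs signalling from the GLP-1 receptor enhances insulin secretion, and in hepatocytes Gs signalling from the glucagon receptor drives glucose output.

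The ends of the coding sequences of the 3 gamma genes are printed below. They hold the site of that lipid, a motif common to gamma subunits, and show how far these ends differ. Each is the last 60 bases of the coding strand, read 5′ to 3′ from GENCODE M21 on build mm10 (GRCm38), with the 4 codons before the stop codon in capitals. Gng12 lies at chr6:66896397-67021350 on the plus strand, Gng5 at chr3:146499807-146505572 on the plus strand, and Gng10 at chr4:59035088-59041903 on the plus strand.
Gng12: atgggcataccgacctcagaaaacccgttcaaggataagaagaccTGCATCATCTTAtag
Gng5: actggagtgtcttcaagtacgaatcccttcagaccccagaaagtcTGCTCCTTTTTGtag
Gng10: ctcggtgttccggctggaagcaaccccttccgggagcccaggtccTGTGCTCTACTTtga
In all 3 the capitals open with a cysteine codon, the residue that carries the lipid. Over the aligned bases of the coding sequences, gaps left out, Gng12 was 65.2% identical to Gng5 and 66.8% to Gng10. Gng5 was 65.3% identical to Gng10. For Gng12 the aligned part was 201 and 202 bases, of a coding sequence of 252. Among the other related pairs, identity over aligned bases was 77% for Gnb1 and Gnb2, 74.6% for Gnai2 and Gnai3, and 80.8% for Gnaq and Gna11.

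The other members lie at chr2:174284320-174346744 (Gnas, plus strand), chr9:107614125-107635367 (Gnai2, minus strand), chr3:108107280-108146146 (Gnai3, minus strand) and chr19:16132831-16387463 (Gnaq, plus strand). Gna11 lies at chr10:81528724-81545190 on the minus strand, Gnb1 at chr4:155491361-155559269 on the plus strand and Gnb2 at chr5:137528127-137533510 on the minus strand. All values are for a whole gene over its exons. Gnas shared 22% of its exon bases with the annotated genes Gm20721 and Nespas, and Gm20721 was 98.1% identical to it over 1434 bases, so reads of Gnas and Gm20721 cannot be told apart with certainty. Gng5 had 4 near copies elsewhere in the genome, of which 1, Gm3150, was in the table and was listed at 0 in every library.

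Levels are given in FPKM, a read level corrected for transcript length and library size, as deposited. The summed FPKM of a library differed many fold, at 176592 and 104923 in the liver nuclear libraries, 1219625 and 859210 in the liver cytoplasmic, 35469 and 35662 in the MIN6 nuclear, and 60421 and 63355 in the MIN6 cytoplasmic. Each fraction ratio is therefore given beside the median of all genes tested, and relations between members are also given as ratios within a library, which no scaling between libraries can change. Read numbers were estimated from the steps between low values: 3 reads on a 2 kb transcript are worth 0.4 and 0.289 FPKM in the liver nuclear libraries, 3.74 and 2.61 in the liver cytoplasmic, 0.0783 and 0.0805 in the MIN6 nuclear, and 0.174 and 0.185 in the MIN6 cytoplasmic. These floors cover counting error only. Hepatocyte markers such as Alb were high in all liver libraries and Ins2 was high in all MIN6 libraries, while Alb was listed at 0 in MIN6 and Ins2 in liver. Slc2a2, a glucose transporter listed as a beta-cell marker, had 53.1 and 46.2 FPKM in liver cytoplasmic RNA and was listed at 0 in both MIN6 cytoplasmic libraries. In bulk samples, fewer cells of a type and less RNA per cell cannot be told apart.

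Among the alpha subunits, Gnas, which encodes the stimulatory alpha subunit of Gs, was the most abundant member in both cytoplasms. Its value covers a gene with 24 annotated transcripts, and the part that codes for that subunit was not tested. Gnas had 21.4 and 15.3 FPKM in liver nuclear RNA, against 1098 and 712 FPKM in liver cytoplasmic RNA. In MIN6, Gnas had 34.6 and 19.1 FPKM in nuclear RNA, against 274 and 207 FPKM in cytoplasmic RNA. The fractions did not overlap in either tissue. Gm20721, which shares exons with Gnas, had 2.67 and 0.998 FPKM in liver nuclear RNA, against 218 and 132 FPKM in liver cytoplasmic RNA. Gm20721 also had 2.28 and 3.49 FPKM in MIN6 nuclear RNA, against 76.0 and 65.0 FPKM in MIN6 cytoplasmic RNA. Because the reads of Gnas and Gm20721 cannot be told apart with certainty, these are not independent values.

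Gnai2 and Gnai3 encode inhibitory alpha subunits. Gnai2 had 5.65 and 4.23 FPKM in liver nuclear RNA, against 90.9 and 62.1 FPKM in liver cytoplasmic RNA, and 1.33 and 1.51 FPKM in MIN6 nuclear RNA, against 9.65 and 10.2 FPKM in MIN6 cytoplasmic RNA. Gnai3 had 1.16 and 0.968 FPKM in liver nuclear RNA, against 49.6 and 21.2 FPKM in liver cytoplasmic RNA. In MIN6, Gnai3 had 0.104 and 0.217 FPKM in nuclear RNA, against 3.34 and 3.25 FPKM in cytoplasmic RNA. Both genes were above their nuclear values in every cytoplasmic library, and Gnai2 was the higher of the pair in all 8 libraries.

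Gnaq and Gna11 encode the alpha subunits of the Gq class. Gnaq was low throughout, with 0.292 and 0.262 FPKM in liver nuclear RNA, against 3.82 and 0.798 FPKM in liver cytoplasmic RNA. The gap between the liver cytoplasmic libraries is the widest of any tested member, and Gnaq rested there on about 8.64 and 2.59 estimated reads, the second under the floor of 3 reads. In MIN6, Gnaq had 0.141 and 0.208 FPKM in nuclear RNA, against 0.793 and 1.05 FPKM in cytoplasmic RNA, and its mean stayed under the minimum of 1 FPKM set for testing. Gna11 had 2.19 and 1.21 FPKM in liver nuclear RNA, against 18.3 and 10.2 FPKM in liver cytoplasmic RNA, and 1.07 and 1.28 FPKM in MIN6 nuclear RNA, against 2.92 and 3.38 FPKM in MIN6 cytoplasmic RNA. The fractions did not overlap for either gene, although for Gnaq in liver this rests on the cytoplasmic library with 2.59 estimated reads.

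The beta subunit genes differed less in the cytoplasm than in the nucleus. Gnb1 had 3.21 and 1.89 FPKM in liver nuclear RNA, against 141 and 93.7 FPKM in liver cytoplasmic RNA. In MIN6, Gnb1 had 2.76 and 2.75 FPKM in nuclear RNA, against 37.6 and 44.1 FPKM in cytoplasmic RNA. Gnb2 had 40.4 and 37.7 FPKM in liver nuclear RNA, against 221 and 245 FPKM in liver cytoplasmic RNA, and 37.9 and 26.9 FPKM in MIN6 nuclear RNA, against 58.3 and 58.3 FPKM in MIN6 cytoplasmic RNA. Gnb2 had the highest mean of the 10 members in both nuclear fractions, although in MIN6 its nuclear range overlapped that of Gnas.

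Among the gamma subunits, Gng12 and Gng5 changed places between the tissues. Gng12 had 0.644 and 0.388 FPKM in liver nuclear RNA, against 24.0 and 37.9 FPKM in liver cytoplasmic RNA. In MIN6, Gng12 had 0.759 and 1.15 FPKM in nuclear RNA, against 54.5 and 71.2 FPKM in cytoplasmic RNA. Gng5 had 6.61 and 3.59 FPKM in liver nuclear RNA, against 184 and 247 FPKM in liver cytoplasmic RNA, and 0.397 and 0.138 FPKM in MIN6 nuclear RNA, against 8.63 and 9.06 FPKM in MIN6 cytoplasmic RNA. Gng5 was the higher gene in all 4 liver libraries, and Gng12 was the higher gene in all 4 MIN6 libraries. The nuclear values of Gng12 rest on few reads: between 1.64 and 10.3 in liver nuclear replicate 1, depending on which transcript length is assumed. The range was 9.89 to 61.8 in MIN6 nuclear replicate 1. Its liver cytoplasmic value was also thin, at between 6.53 and 40.8 reads in replicate 1.

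Gng10 was close to 0 everywhere. It had 0.0169 and 0.0115 FPKM in liver nuclear RNA, against 0.0977 and 0.0553 FPKM in liver cytoplasmic RNA, and 0.00151 and 0.00140 FPKM in MIN6 nuclear RNA, against 0.00748 and 0.0113 FPKM in MIN6 cytoplasmic RNA. These values correspond to between 0.0312 and 0.11 estimated reads, under 1 read in every library. Gng10 shares 72% of its exon bases with the annotated gene Gm20503, with 99.8% identity over 958 bases, and how reads were divided between the overlapping genes is not given in the sources used here. Gm20503 had 1.15 and 0.863 FPKM in liver nuclear RNA, against 7.18 and 5.26 FPKM in liver cytoplasmic RNA, and 0.234 and 0.243 FPKM in MIN6 nuclear RNA, against 2.81 and 1.83 FPKM in MIN6 cytoplasmic RNA. The Gng10 row therefore gives no usable level of that gene, and no fold change is given.

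**Figure D1:**
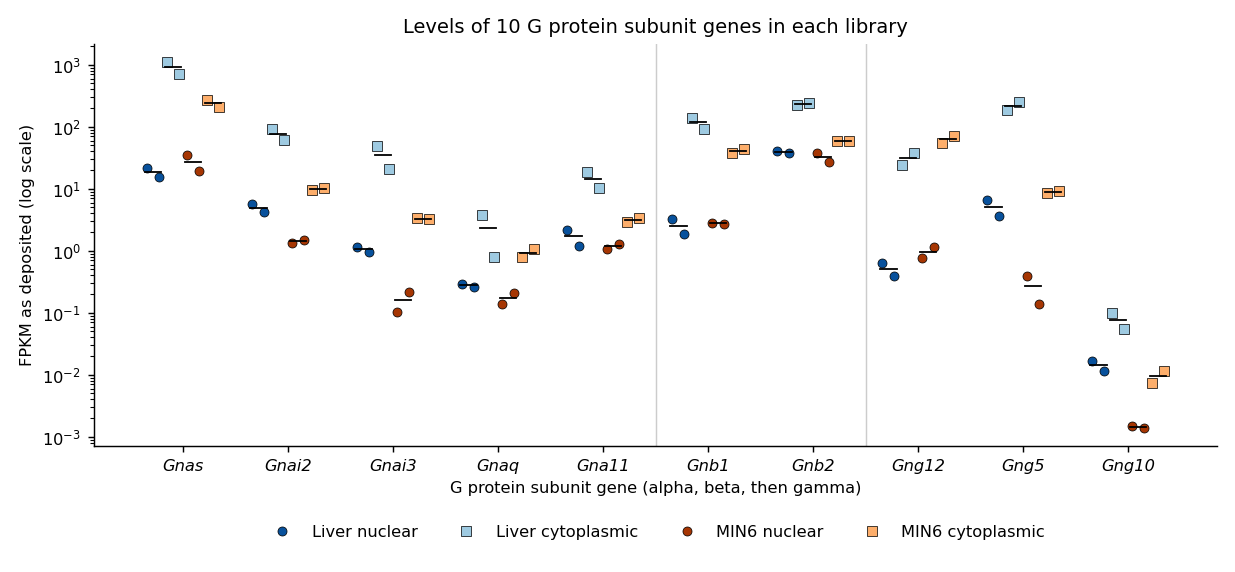
FPKM as deposited (log axis) of the 10 subunit genes, with 1 point per library, a pair of libraries per group, and a bar at the mean of each group. Cytoplasmic points lie above the nuclear points of the same tissue for all 10 genes, though Gng10 gives no usable level. Over all genes tested, this holds for 71.0% in liver and 59.3% in MIN6. Gnaq in liver cytoplasmic replicate 2 rests on 2.59 estimated reads. Gnb2 in MIN6 shows the smallest gap, and Gng10 lies under 0.1 FPKM in every library.

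By mean FPKM, the liver nuclear order was Gnb2, Gnas, Gng5, Gnai2, Gnb1, Gna11, Gnai3, Gng12, Gnaq and Gng10, where the libraries of Gng5 and Gnai2, and those of Gnb1 and Gna11, overlapped. In liver cytoplasm it was Gnas, Gnb2, Gng5, Gnb1, Gnai2, Gnai3, Gng12, Gna11, Gnaq and Gng10, with overlaps between Gnb2 and Gng5 and between Gnai3 and Gng12. In MIN6 nuclei it was Gnb2, Gnas, Gnb1, Gnai2, Gna11, Gng12, Gng5, Gnaq, Gnai3 and Gng10. There, Gnb2 overlapped Gnas, Gna11 overlapped Gng12, and Gng5, Gnaq and Gnai3 each overlapped the next in order. In MIN6 cytoplasm it was Gnas, Gng12, Gnb2, Gnb1, Gnai2, Gng5, Gnai3, Gna11, Gnaq and Gng10, with overlaps between Gng12 and Gnb2 and between Gnai3 and Gna11.

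In liver, 8 of the 9 members tested were lower in the nuclear libraries and 0 were higher (limma on log2(FPKM + 1), adjusted p under 0.05 over 10353 genes). The background was of the same direction: 50.2% of all genes tested were lower in the nuclear libraries and 2.93% were higher. Calls were more frequent among high genes. A fit of only the 4510 genes averaging 10 FPKM or more called 3588 lower and 106 higher. In that fit 7 members were called lower and 0 higher. The median log2 ratio was -4.02 over the 9 members and -1.64 over all genes. Gng10, the member not tested, was under the minimum mean of 1 FPKM. Both nuclear values lay below both cytoplasmic values for all 9 members tested, and for 71.0% of all genes. A fold change on this scale understates the change of low genes.

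Gnas had a nuclear over cytoplasmic log2 ratio of -5.53 in liver (SE 0.48, limma adjusted p = 0.00346), and 1.17% of all genes tested had a lower one. Gng5 had -5.18 (SE 0.49, adjusted p = 0.00346) with 2.10% of genes lower, and Gnb1 had -5.06 (SE 0.48, adjusted p = 0.00346) with 2.44% lower. Gng12 followed at -4.37 (SE 0.46, adjusted p = 0.00361, 5.62% of genes lower). These 4 genes cover the Gs alpha subunit, a beta subunit and both gamma members tested. The inhibitory alpha genes came next, Gnai3 at -4.02 (SE 0.56) and Gnai2 at -3.69 (SE 0.46), with adjusted p-values of 0.00522 and 0.00436 from the same limma fit.

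Gnb2 and Gna11 lay nearer the middle of all genes. Gnb2 had a log2 ratio of -2.55 (SE 0.42, limma adjusted p = 0.00745), with 28.3% of genes lower, and Gna11 had -2.47 (SE 0.51, adjusted p = 0.0132), with 29.9% lower. The ratio of Gnaq, -1.20 (SE 0.60), did not pass (limma adjusted p = 0.148), and 62.4% of genes had a lower ratio. High genes had lower ratios in general on this scale: among the 4510 genes averaging 10 FPKM or more, the median ratio was -2.69. Within those genes, 2.68% had a ratio under that of Gnas, 4.81% under Gng5, 5.61% under Gnb1, 12.9% under Gng12, 18.1% under Gnai3, 25.0% under Gnai2 and 53.7% under Gnb2.

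After median-ratio scaling, which sets the typical gene near equal in the fractions (median log2 ratio 0.09), 6 of the 9 members were lower in liver nuclear RNA, where 11.6% of all genes were lower and 13.8% higher. Gnas had -3.14, Gng5 -2.91, Gnb1 -2.91, Gng12 -2.70, Gnai3 -2.11 and Gnai2 -1.43 on this scale, with limma adjusted p between 0.0123 and 0.0336. Gna11 at -0.52, Gnaq at -0.15 and Gnb2 at -0.14 did not pass, with limma adjusted p of 0.294, 0.798 and 0.815. When each library was instead set to the same sum, Gnb2 (0.33) and Gnaq (0.11) had ratios above 0, so for these genes the direction depends on the scaling. The same setting ended the calls made as deposited of Gna11 (-0.15, limma adjusted p = 0.78), Gnai2 (-1.01, adjusted p = 0.117) and Gnai3 (-1.89, adjusted p = 0.0534) and left 4 members called: Gnas, Gng5, Gnb1 and Gng12. Without liver nuclear replicate 1 or without liver nuclear replicate 2 no member was called, and neither was any of the 10353 genes, of which 4275 and 3691 had an unadjusted limma p under 0.05. The called members kept ratios between -5.76 and -2.21 in these fits, which assume that the lone nuclear library varies like the others. Without liver cytoplasmic replicate 2, Gnaq passed at -1.92 (limma adjusted p = 0.0298), and without cytoplasmic replicate 1, Gna11 did not (-2.08, limma adjusted p = 0.0516).

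Markers of other liver cells were present in these libraries, and not all leaned to the same fraction. The summed FPKM of 4 hemoglobin genes was 25.2 and 4.15 in liver nuclear RNA, against 2164 and 487 in liver cytoplasmic RNA. The summed FPKM of the 4 Kupffer and immune markers in the table was 154 and 116 in liver nuclear RNA, against 330.2 and 313 in liver cytoplasmic RNA. Within that list Ptprc went the other way, with 6.17 and 6.92 FPKM in liver nuclear RNA, against 1.97 and 0 FPKM in liver cytoplasmic RNA. The summed FPKM of 4 endothelial markers was 43.7 and 36.1 in liver nuclear RNA, against 52.4 and 36.3 in liver cytoplasmic RNA, and of these Stab2 had 30.6 and 21.9 FPKM in nuclear RNA, against 11.9 and 8.69 FPKM in cytoplasmic RNA. The summed FPKM of 4 stellate and stromal markers was 21.2 and 12.3 in liver nuclear RNA, against 103 and 81.2 in liver cytoplasmic RNA. All 4 hemoglobin genes were at 0 in MIN6. The liver values of the subunit genes are sums over these cell types, and the part of the cell types in the ratios was not tested.

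In MIN6, where Gng12 drew the choice of the set, the ratios are a description. Gng12 had a nuclear over cytoplasmic log2 ratio of -5.02 (SE 0.28), and 0.0665% of the 6017 genes tested had a lower one. Gnb1 had -3.47 (SE 0.24), Gnas -3.16 (SE 0.36), Gng5 -2.96 (SE 0.25), Gnai2 -2.18 (SE 0.24) and Gnai3 -1.89 (SE 0.24). Gna11 at -0.93 (SE 0.24) and Gnb2 at -0.85 (SE 0.28) lay near the median of all genes, -0.76. The ratios of low genes, and with them the order, move with the pseudocount. With 0.1 in place of 1, Gng12 had -5.91, Gng5 -4.70, Gnb1 -3.84, Gnai3 -3.74, Gnas -3.21 and Gnai2 -2.73, and with 5 they had -3.50 (Gng12), -1.39 (Gng5), -2.56 (Gnb1), -0.68 (Gnai3), -2.98 (Gnas) and -1.22 (Gnai2). Gng12 was the lowest of these 6 at each pseudocount. In this comparison 46.1% of all genes were lower in the nuclear libraries and 11.8% were higher, and both nuclear values lay below both cytoplasmic values in 59.3%. After median-ratio scaling 23.3% of all genes were lower and 26.7% higher, with Gng12 at -4.08 and Gnb2 at 0.37, on the other side of 0.

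**Figure D2:**
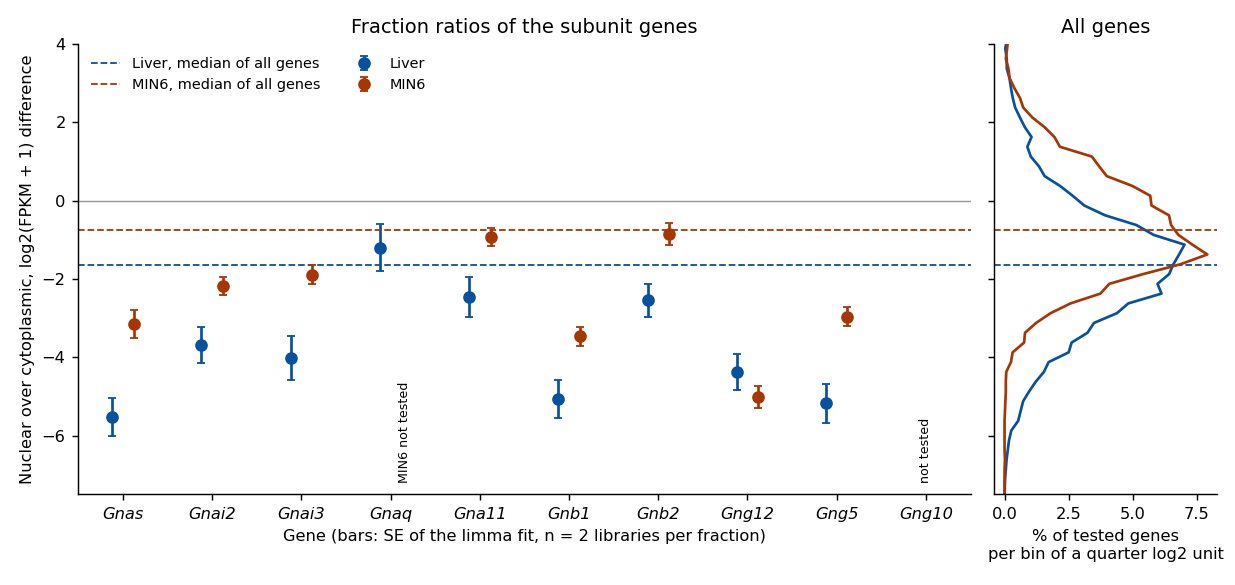
Nuclear over cytoplasmic log2(FPKM + 1) difference of each subunit gene in liver and in MIN6, with the SE of the limma fit (n = 2 libraries per fraction), dashed lines at the median of all genes tested, and on the right the distribution over all genes. On this scale Gng12 is the only one of the 8 genes tested in both tissues with a lower value in MIN6 (-5.02) than in liver (-4.37), which does not hold with library sums of 1000000, and Gna11 and Gnb2 lie nearest the MIN6 median.

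As deposited, Gng12 was the only one of the 8 members tested in both tissues whose MIN6 ratio was not above its liver ratio. The MIN6 ratio minus the liver ratio was -0.66 for Gng12 (SE 0.53), between 1.51 and 2.37 for the other 7, and 1.26 at the median of 5315 genes. That difference contains the contrast used to choose the set and was not tested. The differences of the other 7 were all above that median on the deposited scale, but their sign depends on the scaling. Median-ratio scaling within each tissue kept the signs. Gng12 was then lower in MIN6 (-4.08) than in liver (-2.70). The other 7 were higher in MIN6, among them Gng5 (-2.27 in MIN6 and -2.91 in liver) and Gnai2 (-1.23 and -1.43). With library sums of 1000000 the ratio in MIN6 was below that in liver for Gng12 (-5.21 in MIN6 and -2.71 in liver), Gng5 (-4.22 and -2.51), Gnai3 (-3.36 and -1.89), Gnai2 (-1.99 and -1.01), Gnb1 (-3.07 and -2.57), Gna11 (-0.61 and -0.15) and Gnb2 (-0.07 and 0.33). Gnas (-2.41 and -2.69) was then the exception.

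Ratios of related genes within a library need no scaling and no pseudocount. Gnb2 stood at 12.6 and 19.9 times Gnb1 in liver nuclear RNA, against 1.56 and 2.62 times in liver cytoplasmic RNA. In MIN6 the ratio was 13.7 and 9.78 in nuclear RNA, against 1.55 and 1.32 in cytoplasmic RNA. The fractions did not overlap in either tissue, and the MIN6 values lay close to the liver values of the same fraction. As a share of the summed FPKM of the 5 beta genes, Gnb1 made up 7.23% and 4.71% in liver nuclear RNA, against 39.0% and 27.5% in liver cytoplasmic RNA. In MIN6, Gnb1 made up 6.74% and 9.23% in nuclear RNA, against 38.5% and 42.8% in cytoplasmic RNA.

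Gnai2 stood at 4.85 and 4.36 times Gnai3 in liver nuclear RNA, against 1.83 and 2.93 times in liver cytoplasmic RNA, and at 12.7 and 6.97 times in MIN6 nuclear RNA, against 2.89 and 3.16 times in MIN6 cytoplasmic RNA. By these ratios Gnai3 was further to the cytoplasmic side than Gnai2 in both tissues. In MIN6 the fit with a pseudocount of 1 gave the opposite order (-1.89 for Gnai3 and -2.18 for Gnai2), and with 0.1 it gave that of the ratios. The Gna11 to Gnaq ratio was 7.49 and 4.60 in liver nuclear RNA, against 4.79 and 12.8 in liver cytoplasmic RNA, which overlap. In MIN6 it was 7.56 and 6.15 in nuclear RNA, against 3.68 and 3.22 in cytoplasmic RNA. With 2 libraries against 2, an exact two-sided permutation test cannot give a p under 0.333, so these ratios were not tested singly.

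**Figure D3:**
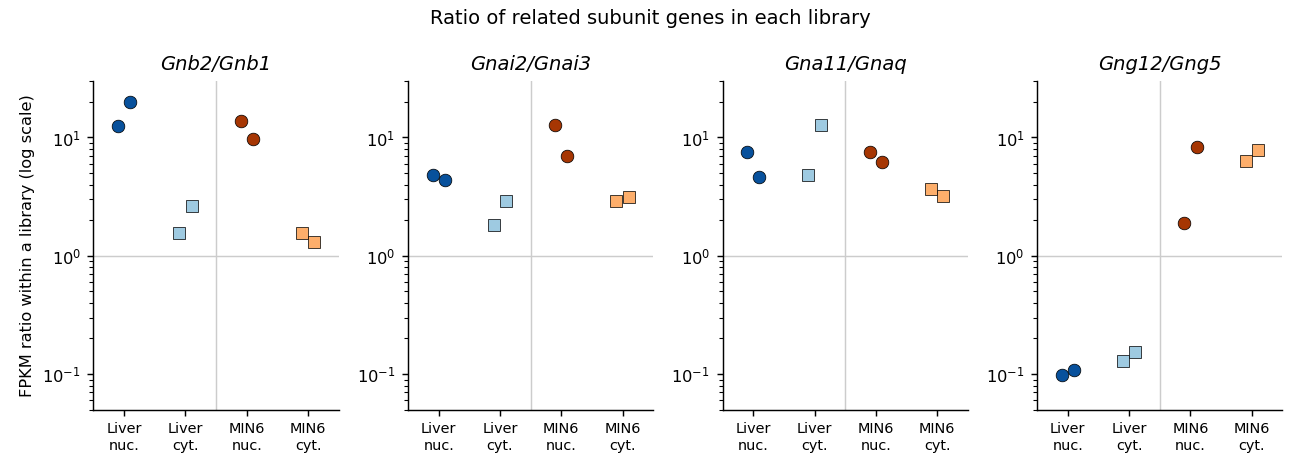
FPKM ratio of 4 pairs of related subunit genes within each library (log axis), with 2 points for each fraction of each tissue and a line at equal levels. Gnb2/Gnb1 separates nuclear from cytoplasmic libraries in both tissues (9.78 to 19.9 against 1.32 to 2.62). Gng12/Gng5 differs between the tissues (0.0974 to 0.153 in liver and 1.91 to 8.35 in MIN6). This is a description, because Gng12 drew the choice of the set by its MIN6 values.

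The gamma pair differed by tissue. Gng12 drew the choice of the set by its MIN6 values, so this is a description with no test. Gng12 stood at 0.0974 and 0.108 times Gng5 in liver nuclear RNA, against 1.91 and 8.35 times in MIN6 nuclear RNA. In MIN6 nuclear replicate 2, Gng5 rested on between 1.52 and 6.21 estimated reads, depending on the transcript length assumed. In the cytoplasm the ratio was 0.130 and 0.153 in liver, against 6.32 and 7.86 in MIN6. Of the summed FPKM of the 12 gamma genes, Gng12 made up 9.64% and 12.3% in liver cytoplasmic RNA, against 78.4% and 80.4% in MIN6 cytoplasmic RNA. Gng5 made up 74.1% and 80.1% in liver cytoplasmic RNA, against 12.4% and 10.2% in MIN6 cytoplasmic RNA. In nuclear RNA, Gng12 made up 4.29% and 3.18% in liver, against 50.5% and 53.3% in MIN6. Gng5 there made up 44.1% and 29.5% in liver, against 26.4% and 6.38% in MIN6. Gngt2, a gamma gene outside the members, was above Gng5 in both liver nuclear libraries, at 6.75 and 7.82 against 6.61 and 3.59 FPKM. Gnas was the leading alpha gene in all 8 libraries, at 56.8% and 57.6% of the 16 alpha genes in liver nuclear RNA and 79.7% and 81.7% in liver cytoplasmic RNA. In MIN6 it held 79.5% and 61.9% in nuclear RNA and 88.6% and 80.9% in cytoplasmic RNA.

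**Figure D4:**
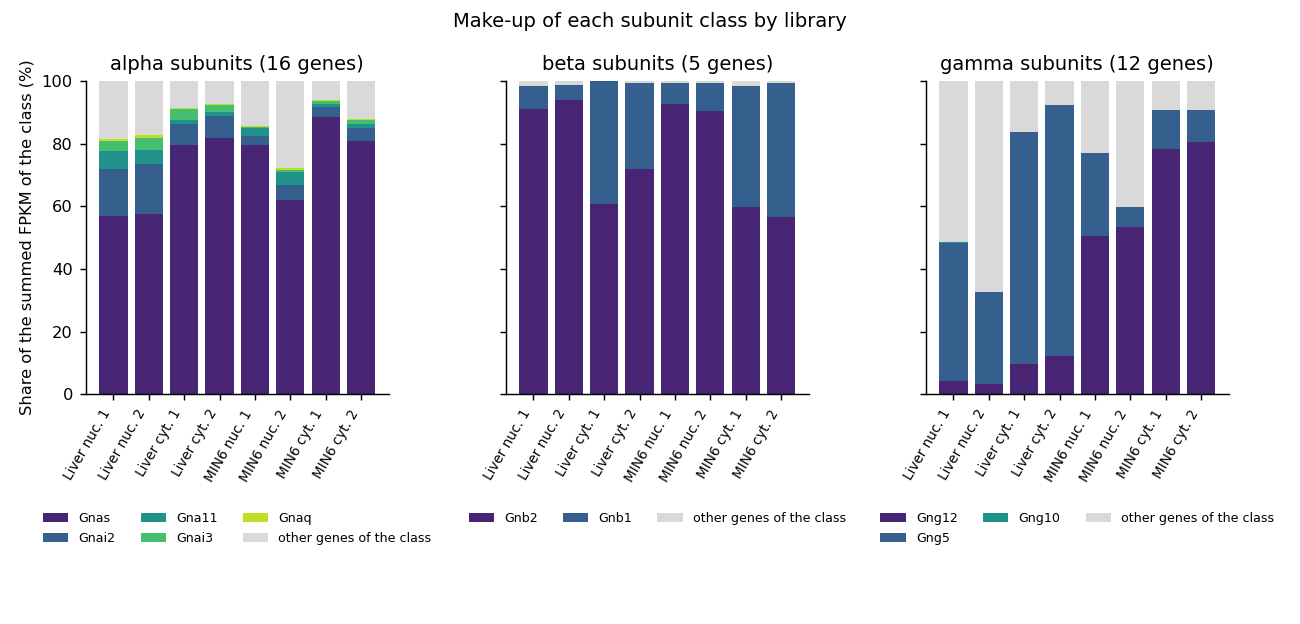
Share (%) of the summed FPKM of the alpha, beta and gamma subunit genes taken by each member in each library, with the other genes of the class in grey. Gng12 holds 78.4% and 80.4% of the gamma sum in MIN6 cytoplasm, where Gng5 holds 12.4% and 10.2%. The MIN6 shares of Gng12 are a description, because its MIN6 values drew the choice of the set. Gnb1 holds 27.5% to 42.8% of the beta sum in the cytoplasmic libraries and 4.71% to 9.23% in the nuclear ones.

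Liver was set against MIN6 within each fraction after median-ratio scaling. The direction rests on that scaling, because the median log2 ratio of all genes in cytoplasmic RNA was 2.17 as deposited and -0.07 once scaled. In cytoplasmic RNA, 1 of the 8 members tested was higher in liver and 2 were lower, where 21.4% of the 9927 genes tested were higher and 19.7% lower. Gng5 had scaled values of 56.5 and 108 FPKM in liver, against 23.7 and 24.5 FPKM in MIN6, a log2 ratio of 1.66 (SE 0.39, limma adjusted p = 0.0368). Gnb1 had 43.3 and 41.2 in liver, against 103 and 119 in MIN6, a log2 ratio of -1.37 (SE 0.22, limma adjusted p = 0.0142). Gnas had 336 and 313 in liver, against 753 and 560.0 in MIN6, a log2 ratio of -0.93 relative to the median of all genes (SE of the ratio 0.26, limma adjusted p = 0.0464).

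Gng12, described without a test, had scaled cytoplasmic values of 7.34 and 16.6 FPKM in liver, against 149.7 and 193 FPKM in MIN6, a log2 ratio of -3.82. Gnai2 had 27.8 and 27.3 in liver, against 26.5 and 27.7 in MIN6, a log2 ratio of 0.02 (SE 0.21). Gnai3 (0.37), Gna11 (-0.67), Gnb2 (-0.89) and Gnaq (-1.03) also did not pass, with limma adjusted p between 0.0795 and 0.939 for these 5 genes. As deposited, where 67.0% of all genes were higher in liver and 7.35% lower, Gnas (1.89), Gnb1 (1.48), Gna11 (1.83), Gnb2 (1.98) and Gnaq (0.62) all had ratios above 0, while Gng5 stayed higher in liver (4.44) and Gng12 lower (-1.02). Of the 3 scaled calls, that of Gng5 was lost when either MIN6 cytoplasmic library was left out (1.64 and 1.68) and with library sums of 1000000 (0.54, limma adjusted p = 0.319). Those of Gnas (-1.21 to -0.79) and Gnb1 (-1.48 to -1.27) were lost without any one of the 4 libraries. A pseudocount of 0.1 also ended the calls of Gng5 and Gnas (limma adjusted p = 0.0605 and 0.0757), as did testing with no filter on low values (0.0553 and 0.0515).

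In nuclear RNA, 1 of the 6 members tested was higher in liver and 3 were lower, where 24.7% of the 6935 genes tested were higher and 20.5% lower. Gng5 had scaled values of 3.08 and 2.43 FPKM in liver nuclei, against 0.673 and 0.259 FPKM in MIN6 nuclei, a log2 ratio of 1.37 (SE 0.28, limma adjusted p = 0.0160). Gnas had 9.95 and 10.3 in liver, against 58.7 and 35.9 in MIN6, a log2 ratio of -2.07 (SE 0.32, limma adjusted p = 0.00714). Gnb1 at -1.31 and Gnb2 at -1.34 were also lower in liver nuclei, with limma adjusted p of 0.0116 and 0.0189. Gng12, not tested, had 0.300 and 0.262 in liver nuclei, against 1.29 and 2.16 in MIN6 nuclei, a log2 ratio of -1.07. Gna11 (-0.69) and Gnai2 (0.08) did not pass.

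As deposited, where 47.3% of all genes were higher in liver nuclei and 6.33% lower, Gnb2 (0.28) and Gna11 (0.29) had nuclear ratios above 0, and the calls of Gnas (-0.49) and Gnb1 (-0.11) were lost. Leaving out a liver nuclear library ended all 4 calls. Without MIN6 nuclear replicate 1 only Gnas passed, and without MIN6 nuclear replicate 2 only Gnas and Gnb1 did. Gng5 higher in liver (1.16 to 1.57) and Gnas lower kept their direction in each of these fits.

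**Figure D5:**
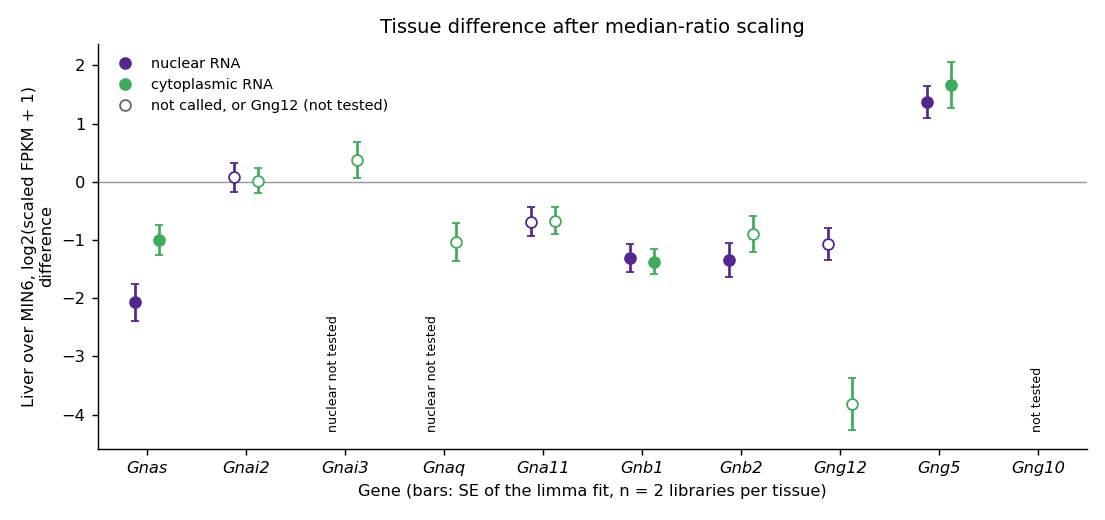
Liver over MIN6 log2 difference of the subunit genes after median-ratio scaling, in nuclear and in cytoplasmic RNA, with the SE of the limma fit (n = 2 libraries per tissue). Filled points passed an adjusted p of 0.05: Gng5 lies above 0 in both fractions, and Gnas and Gnb1 lie below 0 in both.

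The other subunit genes were mostly low. Of 23 further genes, 6 were tested in liver and 2 were lower in nuclear RNA, against 50.2% of all genes. These were Gna12 and Gna13, the alpha subunits of the G12 class. Gna12 had 3.12 and 2.69 FPKM in liver nuclear RNA, against 79.5 and 54.2 FPKM in liver cytoplasmic RNA, a log2 ratio of -4.10 (limma adjusted p = 0.00372) and -1.92 once scaled (adjusted p = 0.0205). Gna13 had a ratio of -2.06 (limma adjusted p = 0.0390), which did not pass once scaled (-0.35). Of the other 4, Gngt2 (-1.27) had 6.75 and 7.82 FPKM in liver nuclear RNA, against 15.7 and 23.0 FPKM in liver cytoplasmic RNA, and Gng11, Gnat1 and Gnat2 were each listed at 0 in 1 of the 2 cytoplasmic libraries.

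In MIN6, all 4 of the further subunit genes tested were lower in nuclear RNA, among 46.1% of all genes. Gng4, a gamma subunit, had 0.215 and 0.507 FPKM in MIN6 nuclear RNA, against 4.25 and 5.05 FPKM in MIN6 cytoplasmic RNA, a log2 ratio of -2.06 (limma adjusted p = 0.00293). Gng4 was listed at 0 in all 4 liver libraries. Gnao1, the Go alpha subunit, had 4.93 and 7.35 FPKM in MIN6 nuclear RNA, against 13.0 and 24.3 FPKM in MIN6 cytoplasmic RNA, a log2 ratio of -1.42 (limma adjusted p = 0.0243). Gna13 (-1.76) and Gng2 (-1.65) were the other 2. After scaling 3 of the 4 stayed lower and Gnao1 did not pass (-0.29).

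Among genes that assemble or regulate G proteins, 10 of the 24 tested in liver were lower in nuclear RNA and 0 were higher as deposited, against 50.2% and 2.93% of all genes, with a median log2 ratio of -1.21 against -1.64 over all genes. Once scaled, 0 were lower and 6 were higher, against 11.6% and 13.8% of all genes, so for this list the direction depends on the scaling. As deposited the lowest ratios were those of Cct2 (-3.17, limma adjusted p = 0.00714), a subunit of the chaperonin that folds beta subunits, and Rgs5 (-2.91, adjusted p = 0.0136), which speeds GTP hydrolysis by alpha subunits. Neither passed once scaled.

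In MIN6, 4 of the 20 tested genes of this list were higher in nuclear RNA and 7 were lower, against 11.8% and 46.1% of all genes. Once scaled 5 were higher and 3 lower, against 26.7% and 23.3% of all genes. Rgs11, another regulator of G protein signalling, had 69.9 and 21.2 FPKM in MIN6 nuclear RNA, against 0 and 0.679 FPKM in MIN6 cytoplasmic RNA, a log2 ratio of 4.94 (limma adjusted p = 0.00274). Rgs9 had 32.4 and 16.3 FPKM in MIN6 nuclear RNA, against 2.75 and 5.66 FPKM in MIN6 cytoplasmic RNA, a log2 ratio of 2.27 (limma adjusted p = 0.00954). Rgs10 (-2.38) and Tcp1 (-1.52), a chaperonin subunit, were the lowest, and Rgs10 (-1.68, limma adjusted p = 0.00695) but not Tcp1 (-0.39) passed once scaled. As deposited, Rgs9 and Rgs11 thus lay on the opposite side from all 8 members with a MIN6 ratio.

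Among effectors, 6 of the 20 tested in liver were lower in nuclear RNA and 0 were higher, against 50.2% and 2.93% of all genes. Once scaled 1 was lower and 5 were higher, against 11.6% and 13.8% of all genes. Prkar2a, a regulatory subunit of protein kinase A, had 0.388 and 0.507 FPKM in liver nuclear RNA, against 30.8 and 19.8 FPKM in liver cytoplasmic RNA, a log2 ratio of -4.15 (limma adjusted p = 0.00373). Prkar2a stayed lower once scaled (-2.50, limma adjusted p = 0.0150). Prkaca, the catalytic subunit, had -3.15 as deposited (limma adjusted p = 0.00889) and did not pass once scaled (-1.02).

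In MIN6, 1 of the 8 effectors tested was higher in nuclear RNA and 5 were lower, and once scaled 1 was higher and 4 were lower. Over all genes 11.8% were higher and 46.1% lower as deposited, and 26.7% and 23.3% once scaled. Arhgef1, an effector of G12 class alpha subunits, had 60.6 and 40.4 FPKM in MIN6 nuclear RNA, against 6.19 and 8.16 FPKM in MIN6 cytoplasmic RNA, a log2 ratio of 2.64 (limma adjusted p = 0.00255). In liver, Arhgef1 had 65.3 and 40.9 FPKM in nuclear RNA, against 102 and 36.7 FPKM in cytoplasmic RNA, with a ratio of -0.24 that did not pass as deposited and 2.15 once scaled (limma adjusted p = 0.0313). The protein kinase A subunits Prkar1a (-2.67) and Prkar1b (-2.44) had the lowest MIN6 ratios, and both passed on either scale.

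Among receptors, 4 of the 8 tested in liver were lower in nuclear RNA and 0 were higher, near the 50.2% and 2.93% of all genes. Once scaled 0 were lower and 2 were higher, against 11.6% and 13.8% of all genes. S1pr1, a receptor for sphingosine 1-phosphate, had 0.957 and 1.00 FPKM in liver nuclear RNA, against 14.3 and 15.7 FPKM in liver cytoplasmic RNA, a log2 ratio of -3.01 (limma adjusted p = 0.00521), and P2ry2, a nucleotide receptor, had -2.93 (limma adjusted p = 0.0123). Neither passed once scaled, at -1.18 and -1.43.

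In MIN6, 1 of the 6 receptors tested was higher in nuclear RNA and 5 were lower, against 11.8% and 46.1% of all genes. Once scaled 1 was higher and 1 was lower, against 26.7% and 23.3% of all genes. Gipr, the receptor for the incretin GIP, had 39.5 and 18.3 FPKM in MIN6 nuclear RNA, against 2.04 and 1.34 FPKM in MIN6 cytoplasmic RNA, a log2 ratio of 3.39 (limma adjusted p = 0.00276). Glp1r, the GLP-1 receptor, had 1.08 and 2.24 FPKM in MIN6 nuclear RNA, against 6.91 and 8.68 FPKM in MIN6 cytoplasmic RNA, a log2 ratio of -1.75 (limma adjusted p = 0.00728) that did not pass once scaled (-0.81). Ffar1, a fatty acid receptor, had -2.82 (limma adjusted p = 0.00235) and stayed lower once scaled (-2.10). Gipr and Glp1r both signal through the Gs subunit encoded by Gnas, and their transcripts lay on opposite sides in these libraries.

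These counts over the pathway also rest on few libraries. Without liver nuclear replicate 1 or without liver nuclear replicate 2, 0 pathway genes were called in liver by limma. Without MIN6 cytoplasmic replicate 2, 0 were called in MIN6, where 0 of all 6017 genes passed and 2769 had an unadjusted p under 0.05. Without MIN6 cytoplasmic replicate 1, 8 pathway genes were called lower and 2 higher.

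By Pearson correlation of log2(scaled FPKM + 1) over the 8 libraries, the 5 genes of 9875 most like Gng12 were Tagln2 (0.991), Ssr4 (0.991), Zwint (0.989), Paip2b (0.986) and Atp6v1a (0.986). The libraries fall into 4 groups and share their scaling, so these values describe a pattern and carry no p. Tagln2 had 1.56 and 1.38 FPKM in liver nuclear RNA, against 34.3 and 33.2 FPKM in liver cytoplasmic RNA, and 1.52 and 1.99 FPKM in MIN6 nuclear RNA, against 30.4 and 36.6 FPKM in MIN6 cytoplasmic RNA. Among the members, the correlation with Gng12 was 0.935 for Gnb1, 0.859 for Gnas, 0.746 for Gnai2, 0.699 for Gna11, 0.588 for Gnai3, 0.413 for Gnb2 and 0.350 for Gng5.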

How the data were processed

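PolyA RNA-seq values of 8 libraries were used, 1 per gene and library. The header of the deposited table names no unit. It was taken as FPKM because the authors used TopHat and Cuffdiff on mm10, per the submitters' processing notes, and FPKM is what Cuffdiff writes. Tool versions, annotation and library scaling were not given in the sources used here. FPKM plus a pseudocount of 1 was put on the log2 scale and fitted with limma (3.58.1, R 4.3.3), for genes averaging 1 FPKM or more, with two-sided p-values adjusted over all genes tested by the Benjamini-Hochberg method. For tissue comparisons each library was divided by its median ratio to the geometric mean of the 4 libraries compared. Positions, transcripts and coding sequences came from GENCODE M21, which matched 25522 genes. Near copies (at least 97% identity over 150 bases) were found with BLAST 2.17.0. The fits were tested on simulated data. The genes named are all 10 members, the 2 called genes of largest ratio each way in each pathway list, the other subunit genes tested and the 5 genes most like Gng12. Members and lists were chosen with earlier results of these data known. Alternatives were the pseudocount, the filter, the trend, the scaling, a replicate block and leaving out each library.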

Additional observations from a re-analysis of the deposited data

Results flagged for a closer look

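Rgs3, a regulator that speeds GTP hydrolysis by Gi and Gq class alpha subunits, had opposite fraction ratios in the 2 tissues as deposited. It had 14.8 and 10.5 FPKM in MIN6 nuclear RNA, against 4.23 and 6.20 FPKM in MIN6 cytoplasmic RNA, and 2.58 and 1.68 FPKM in liver nuclear RNA, against 9.69 and 7.08 FPKM in liver cytoplasmic RNA. The nuclear over cytoplasmic log2 ratio was 1.13 in MIN6 and -1.59 in liver. Rgs3 was picked from the members and lists because its fractions lay apart in opposite directions in the 2 tissues, so no p is given. The difference, MIN6 minus liver, was 2.72 (SE 0.54), against a median of 1.26 over 5315 genes. After median-ratio scaling within each tissue the ratio was 2.22 in MIN6 and 0.36 in liver, so the opposite signs depend on the scaling.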

How the results depend on the processing

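Each result was recomputed under 12 alternatives. The liver members called lower in nuclear RNA (8) were 4 with library sums of 1000000 and from 0 to 9 with 1 library left out. No member was higher in liver nuclei in any of the 12, by limma. Of the pathway genes in liver (22 lower, 0 higher), 1 was higher with no filter, 1 was lower and 13 higher with sums of 1000000, and 2 were lower and 13 higher with median-ratio scaling. With the filter at 10 FPKM, added after seeing the data, 14 were lower. With 1 library left out they ran from 0 to 28 lower and from 0 to 4 higher. In MIN6 (21 pathway genes lower, 6 higher), 12 were lower with sums of 1000000, 11 with median-ratio scaling and 3 with the filter at 10 FPKM, which also left 4 of the 8 members tested. With 1 library left out they ran from 0 to 17 lower and from 0 to 5 higher. Ratios that changed sign were Gnaq (0.11) and Gnb2 (0.33) in liver with sums of 1000000, and Gnb2 (0.37) in MIN6 with median-ratio scaling.

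Between tissues in cytoplasmic RNA (1 member higher in liver, 2 lower), the counts were 0 and 1 with a pseudocount of 0.1 or with no filter, 0 and 6 with sums of 1000000, and 7 and 0 as deposited. With 1 library left out they ran from 0 to 1 both ways. With sums of 1000000, Gnai2 (-1.12) and Gnai3 (-0.73) changed sign. As deposited, Gnas (1.89), Gnaq (0.62), Gna11 (1.83), Gnb1 (1.48) and Gnb2 (1.98) did, and Gnai2 ranged from -0.01 to 0.05 with 1 library left out. In nuclear RNA (1 higher, 3 lower), the counts were 2 and 0 as deposited, 0 higher with the filter at 10 FPKM, and 0 higher and from 0 to 2 lower with 1 library left out. There Gnai2 changed sign with sums of 1000000 (-0.15) and ranged from -0.04 to 0.20 with 1 library left out, and Gna11 (0.29) and Gnb2 (0.28) changed sign as deposited. The cause of these changes was not tested. 

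Across genes, libraries with the same replicate number did not deviate together (r = 0.043 in liver and 0.045 in MIN6), so the numbers were not taken as pairs. That r does not measure a shift of whole libraries. The median log2 difference of replicate 1 minus replicate 2 was 0.32 in nuclear and 0.41 in cytoplasmic liver RNA. In MIN6 it was 0.18 in nuclear and -0.03 in cytoplasmic RNA. A replicate block moved 1 count by over 1.5 times: 1 member in place of 2 was lower in liver cytoplasm, where Gnas had an adjusted p of 0.0761 from limma. Nuclear values of Gng12, Gng5, Gnaq and Gnai3, and liver cytoplasmic values of Gng12 and Gnaq, rest on few reads, which limits the precision of their ratios. Each fit that leaves out a library has 1 sample in a group, assumed to vary like the rest.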
